A study of Mus musculus with 12 samples.

Results

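The genes described here are 40 genes of glycolysis and of the response to low oxygen, measured in mouse mesenchymal stem/stromal cells (MSCs) with and without p38α and with and without TGF-β. They were listed by name, with earlier results of these data known, so shares of the list set against all genes are not independent evidence. A gene was read from a microarray probeset (the set of probes that reports 1 transcript) annotated to its symbol alone, and where a gene had several, from the probeset with the highest mean over the 12 arrays. This gave a value for 36 of the 40 genes, among 17097 genes in all. Gpi1, Eno1 and P4ha1 had no such probeset, and the probeset of Pgam1 was shared with Pgam1-ps1, so these 4 genes were not analysed here.

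Glycolysis breaks glucose down to pyruvate. Hexokinase traps glucose in the cell, phosphofructokinase commits it to the pathway, and the pyruvate at the end is either reduced to lactate and exported or oxidized in mitochondria through pyruvate dehydrogenase, which the pyruvate dehydrogenase kinases switch off. When oxygen is scarce, the transcription factor HIF escapes the prolyl hydroxylases (Egln proteins) and the Vhl ubiquitin ligase that otherwise mark it for degradation, and it turns on many of the genes of this list. TGF-β is a cytokine that drives MSCs towards matrix-producing, myofibroblast-like states, and p38α, encoded by Mapk14, is one of the kinases it activates.

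The MSCs came from bone marrow of mice with floxed Mapk14 alleles and a Cre-ERT2 under the ubiquitin promoter, and were immortalized by a 3T3 protocol. The labels give the strain as FVB/NJ, whereas the study's methods name C57BL/6 J for its mice. p38α∆ MSCs had been given 4-hydroxytamoxifen to delete Mapk14 and WT MSCs its vehicle, so all groups carried the floxed alleles and the Cre. All cells were starved in 0.5% serum, and the treated ones received 5 ng/ml TGF-β for 20 h. RNA was measured on 3 arrays of TGF-β-treated p38α∆ MSCs, 3 arrays of TGF-β-treated WT MSCs, 2 arrays of untreated p38α∆ MSCs and 4 arrays of untreated WT MSCs. With TGF-β, the p38α∆ arrays are numbered 1, 2 and 4 and the WT arrays 1, 3 and 4, and without it the p38α∆ arrays 1 and 3 and the WT arrays 1, 3, 4 and 4b. What a number stands for, and whether arrays of 1 group came from separate cultures, is not given in the sources used here, so the p-values measure the spread between these arrays, which may be technical.

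Values are log2 signals normalized by RMA, on which a difference of 1 is a 2-fold change, and they are compared within a gene only. Over all genes, the first principal component held 47.5% of the variance and set the 4 arrays numbered 1, at −41.0 to −23.1, apart from the other 8, at 2.1 to 31.1. With TGF-β, Mapk14 itself lay at 9.27 to 9.51 in the p38α∆ arrays and 9.06 to 9.32 in the WT arrays, and untreated at 9.01 to 9.03 in the p38α∆ arrays and 8.95 to 9.12 in the WT arrays. No source used here places this probeset inside the deleted exons, and it therefore checks nothing about the deletion. Of 13 measured MSC markers, 9 had a mean above the median gene. The others were Thy1 (3.14 to 3.55), Lepr (3.84 to 4.17), Eng (4.32 to 4.98) and Mcam (4.06 to 5.62). None of 9 endothelial and none of 8 leukocyte markers lay above the median gene or passed in any comparison, and the leukocyte marker Ptprc was at 2.67 to 2.97. With TGF-β the mean of the MSC markers was 7.47 to 7.57 in the p38α∆ arrays and 7.29 to 7.39 in the WT arrays. Untreated it was 7.19 to 7.20 in the p38α∆ arrays and 7.16 to 7.22 in the WT arrays. Between the TGF-β-treated groups, Nes (mean 6.80 in p38α∆ against 5.67 in WT MSCs) and Mcam (5.45 against 4.28) differed most. Pdgfra (5.39 against 5.89), Eng, Col1a2 and Lepr were lower in p38α∆ MSCs. Of the 13 MSC markers, 5 passed in some comparison, as did 2 of 5 osteoblast and chondrocyte markers, 1 of 5 epithelial markers and none of the 3 adipocyte and 2 erythroid markers. The part of other cell types in the results below was not tested. In these bulk RNA samples, fewer cells of a type and less RNA per cell cannot be told apart.

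Promoter sequence is shown for the genes with the largest TGF-β responses below, 3 that rose (Hk2, Pfkfb3 and Ak4) and 1 that fell (Pdk2), because HIF binds DNA at a short core. The windows are the 250 bases before a transcription start site in the RefSeq annotation of GRCm38.p6, written 5′ to 3′ on the gene's strand. Capitals mark the HIF core, ACGTG or GCGTG, on either strand (CACGT and CACGC on the other). A CACGTG holds the core on both strands and counts as 2 matches.
Hk2, chr6:82774455-82774704, minus strand: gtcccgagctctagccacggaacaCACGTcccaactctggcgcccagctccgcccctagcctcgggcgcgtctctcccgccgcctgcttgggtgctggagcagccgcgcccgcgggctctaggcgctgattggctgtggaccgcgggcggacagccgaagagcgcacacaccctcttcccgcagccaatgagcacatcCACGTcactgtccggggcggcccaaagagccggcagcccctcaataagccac
Pfkfb3, chr2:11502091-11502340, minus strand: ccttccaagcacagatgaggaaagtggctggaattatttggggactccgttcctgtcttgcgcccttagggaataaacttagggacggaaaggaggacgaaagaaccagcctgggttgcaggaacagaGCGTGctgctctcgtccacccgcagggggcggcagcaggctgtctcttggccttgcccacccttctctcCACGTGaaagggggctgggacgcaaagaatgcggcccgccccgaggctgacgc
Pfkfb3, chr2:11553930-11554179, minus strand: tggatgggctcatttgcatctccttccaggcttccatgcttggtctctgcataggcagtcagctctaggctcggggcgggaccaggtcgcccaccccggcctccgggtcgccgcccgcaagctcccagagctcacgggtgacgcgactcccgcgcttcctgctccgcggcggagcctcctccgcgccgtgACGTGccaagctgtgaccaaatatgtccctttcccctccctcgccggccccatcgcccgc
Ak4, chr4:101419039-101419288, plus strand: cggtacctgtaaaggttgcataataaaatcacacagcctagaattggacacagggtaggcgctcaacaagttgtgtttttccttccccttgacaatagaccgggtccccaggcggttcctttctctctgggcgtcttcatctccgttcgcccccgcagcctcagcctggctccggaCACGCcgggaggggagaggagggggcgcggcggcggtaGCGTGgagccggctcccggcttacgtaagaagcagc
Ak4, chr4:101419453-101419702, plus strand: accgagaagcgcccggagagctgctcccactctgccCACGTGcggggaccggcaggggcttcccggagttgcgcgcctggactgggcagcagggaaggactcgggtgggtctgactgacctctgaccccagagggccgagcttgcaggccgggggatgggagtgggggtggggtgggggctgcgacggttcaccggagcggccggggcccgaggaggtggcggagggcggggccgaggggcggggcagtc
Pdk2, chr11:95041372-95041621, minus strand: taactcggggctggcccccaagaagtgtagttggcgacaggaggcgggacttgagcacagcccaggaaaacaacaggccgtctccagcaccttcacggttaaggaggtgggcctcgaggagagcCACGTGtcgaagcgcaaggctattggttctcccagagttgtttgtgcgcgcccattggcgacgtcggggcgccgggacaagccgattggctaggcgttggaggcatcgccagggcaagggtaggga

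The Hk2 window had 2 matches, 1 near its distal end and 1 close to the start site. The first Pfkfb3 window had 3 and the second 1, each of the Ak4 windows 2, and the Pdk2 window 2, while the other Pdk2 window, not shown, had none. So the letters stood in front of genes that rose and of a gene that fell. Of the 40 genes, 38 had at least 1 RefSeq window and 33 had the core in at least 1 of theirs. Among the measured genes with a window, the core was present for 12 of the 13 that passed in any comparison below and for 18 of the 21 that passed in none. It was found in 44 of the 55 windows of the list (80.0%), in 48.8% of 17065 windows of all genes on the array and in 38.6% of all 32851 windows. The list's windows were also richer in G and C (median 62.4%, against 57.6% for genes on the array). CAGAC, the letters of a Smad binding element on either strand, stood in 36.4% of the list's windows and in 41.6% of those of genes on the array. A match is a run of letters and does not show that a factor binds there.

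TGF-β changed a small part of the list, and did so in both genotypes. In p38α∆ MSCs, 8 genes were higher and 2 lower with TGF-β and 26 did not pass (limma, adjusted p under 0.05 over all genes), so 27.8% of the list passed, against 8.40% of all genes (3.43% higher and 4.97% lower). In WT MSCs, 7 were higher and 3 lower and 26 did not pass, again 27.8% of the list, against 9.38% of all genes (4.02% higher and 5.36% lower). In a fit of only the 8549 genes at or above the median gene, 1450 passed in p38α∆ MSCs and 1727 in WT MSCs, larger shares than of all genes. There 11 genes of the list passed in each genotype, so the list exceeded its background by less. The median log2 fold change of the list was 0.16 in p38α∆ MSCs and 0.11 in WT MSCs, where that of all genes was −0.00 and −0.01. It lay above 0 for 30 of 36 genes in p38α∆ MSCs and for 24 of 36 in WT MSCs. Hk2, Pfkm, Pfkfb3, Pdk2, Vhl, Adm and Ak4 passed in both genotypes. Pfkp, Slc16a3 and Egln1 passed in p38α∆ MSCs and not in WT MSCs, and Pfkfb4, Pdk3 and Ero1a in WT MSCs and not in p38α∆ MSCs, but for none of these 6 did the difference between the responses pass. The counts depended on how the array number entered. With the number as a fixed term in limma, 7 genes of the list passed in p38α∆ MSCs. Pfkp (adjusted p = 0.0668), Slc16a3 (adjusted p = 0.0611) and Egln1 (adjusted p = 0.0593) were lost there. In WT MSCs 9 passed, and Pdk3 (adjusted p = 0.0548) was lost. Of all genes, 1376 passed in p38α∆ MSCs and 1689 in WT MSCs in that fit. With the number left out, 6 passed in p38α∆ MSCs and 6 in WT MSCs, against 624 and 602 of all genes. The calls of Pfkp, Pfkfb3, Slc16a3, Egln1 and Adm in p38α∆ MSCs rested on the untreated p38α∆ array 3, as given below. In a fit of the 5 p38α∆ arrays alone, 2 genes of the list passed, Hk2 and Ak4, and 75 of all genes. That fit was added after the data were seen and leaves the number out.

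**Figure D1:**
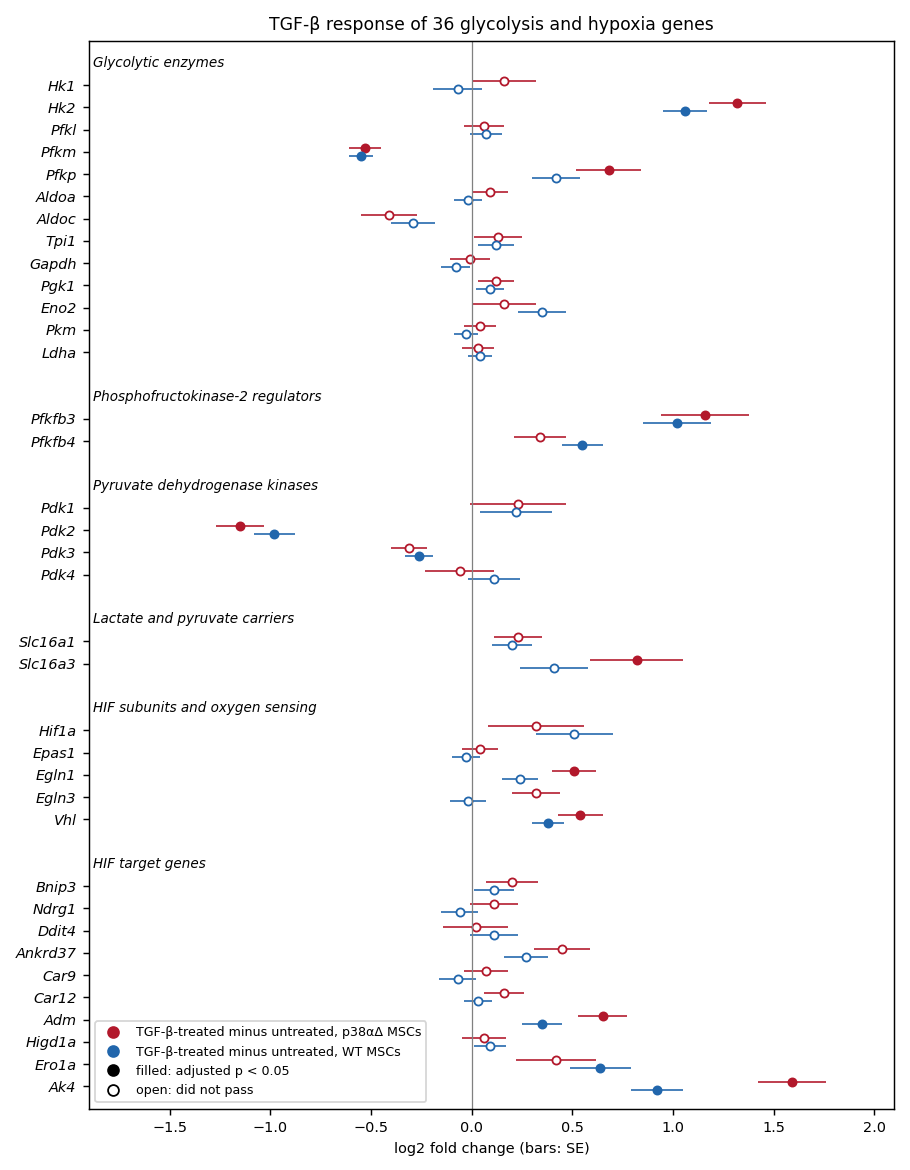
Log2 fold change with TGF-β (horizontal axis, bars 1 SE) of the 36 measured genes, grouped by role, for p38α∆ MSCs (red, above) and WT MSCs (blue, below), with filled points for an adjusted p under 0.05. Hk2, Pfkfb3 and Ak4 lie farthest to the right in both genotypes and Pdk2 farthest to the left, while Gapdh, Pkm, Aldoa and Ldha lie close to 0.

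Among the glycolytic enzymes, the 3 genes that passed act at the entry of glucose and at the commitment step. Hk2, the inducible hexokinase, had log2 values of 8.33, 8.30 and 8.36 in TGF-β-treated p38α∆ MSCs, against 7.14 and 6.94 in untreated p38α∆ MSCs. In WT MSCs it had 8.39, 8.12 and 8.23 with TGF-β, against 7.43, 7.24, 7.19 and 6.81 without. All 6 treated arrays lay above all 6 untreated ones. Hk2 rose 2.49-fold in p38α∆ MSCs (log2 fold change 1.32, SE 0.14, adjusted p = 1.42e-04 in limma) and 2.09-fold in WT MSCs (1.06, SE 0.11, adjusted p = 7.63e-05). Between arrays of the same number it differed by 1.19 in p38α∆ MSCs (number 1) and by 0.95, 0.88 and 1.23 in WT MSCs (numbers 1, 3 and 4). Here and below, the untreated WT value of number 4 in such a difference is the mean of arrays 4 and 4b. Hk1, the hexokinase that most cells carry all the time, changed by 0.16 in p38α∆ MSCs and −0.07 in WT MSCs and did not pass.

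The 3 genes of phosphofructokinase, the enzyme of the commitment step, did not move together. Pfkm, the muscle type, had 8.68, 8.50 and 8.53 in TGF-β-treated p38α∆ MSCs, against 9.17 and 8.98 in untreated p38α∆ MSCs. Its WT values were 8.60, 8.52 and 8.65 with TGF-β, against 9.22, 9.05, 9.15 and 9.14 without. Every treated array was lower than every untreated one, and Pfkm fell 1.44-fold in p38α∆ MSCs (−0.53, SE 0.08, adjusted p = 0.00198 in limma) and 1.46-fold in WT MSCs (−0.55, SE 0.06, adjusted p = 1.74e-04). In the p38α∆ arrays alone it was −0.51 (adjusted p = 0.266). Pfkp, the platelet type, had 8.27, 8.46 and 8.38 in TGF-β-treated p38α∆ MSCs, against 7.92 and 7.41 in untreated p38α∆ MSCs. In WT MSCs the values were 8.26, 8.33 and 8.44 with TGF-β, against 8.20, 7.94, 7.74 and 7.79 without. The groups did not overlap in either genotype, though the untreated WT array 1 came within a small step of the treated ones. Pfkp rose 1.60-fold in p38α∆ MSCs (0.68, SE 0.16, adjusted p = 0.0207) and narrowly missed the threshold in WT MSCs (0.42, SE 0.12, adjusted p = 0.0508). Its call in p38α∆ MSCs was lost without the untreated p38α∆ array 3 (0.46, adjusted p = 0.184) and when array 4 of the TGF-β-treated p38α∆ MSCs was left out (0.60, adjusted p = 0.0705). In WT MSCs it passed when any 1 of the untreated WT array 1, the TGF-β-treated WT array 1, the untreated p38α∆ arrays 1 and 3 or the TGF-β-treated p38α∆ array 1 was left out (0.41 to 0.52, adjusted p from 0.0267 to 0.0460). Pfkl, the liver type, changed by 0.06 in p38α∆ MSCs and 0.07 in WT MSCs at its brightest probeset and did not pass.

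Below that step no enzyme passed. Ldha, which makes lactate from pyruvate, changed by 0.03 in p38α∆ MSCs and 0.04 in WT MSCs, and Gapdh by −0.01 and −0.08. Aldoa, Tpi1, Pgk1 and Pkm stayed between −0.03 and 0.13 in both genotypes. The probesets of Aldoa, Tpi1, Pgk1 and Gapdh, and among the genes below those of Ak4 and Ndrg1, are of kinds whose probes can match more than 1 transcript, so their values may include related sequences. Aldoc, the brain type of aldolase, had a log2 fold change of −0.41 in p38α∆ MSCs and −0.29 in WT MSCs, and Eno2, the neuronal enolase, one of 0.16 and 0.35. Neither passed. Of the 13 enzymes measured, 2 were higher and 1 lower in p38α∆ MSCs and 1 higher and 1 lower in WT MSCs.

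Pfkfb3 and Pfkfb4 make the sugar bisphosphate that activates phosphofructokinase. Pfkfb3 had 7.04, 6.72 and 7.01 in TGF-β-treated p38α∆ MSCs, against 6.17 and 5.45 in untreated p38α∆ MSCs. The WT arrays read 7.12, 6.63 and 6.92 with TGF-β, against 6.45, 5.88, 5.52 and 5.54 without. Within each genotype the groups did not overlap, and array 1 was the highest of its group in all 4 groups. Pfkfb3 rose 2.23-fold in p38α∆ MSCs (1.16, SE 0.22, adjusted p = 0.00597 in limma) and 2.02-fold in WT MSCs (1.02, SE 0.17, adjusted p = 0.00223). The p38α∆ call was lost without the untreated p38α∆ array 3 (0.98, adjusted p = 0.0730). Pfkfb4 had 6.20, 6.41 and 6.03 in TGF-β-treated p38α∆ MSCs, against 5.67 and 6.03 in untreated p38α∆ MSCs. With TGF-β the WT values were 6.10, 6.20 and 6.33, against 5.41, 5.77, 5.78 and 5.68 without. The WT groups were well apart, whereas in p38α∆ MSCs the treated array 4 lay only just above the untreated array 3, both at 6.03 after rounding. Pfkfb4 rose 1.47-fold in WT MSCs (0.55, SE 0.10, adjusted p = 0.00441), and its 0.34 in p38α∆ MSCs (SE 0.13, adjusted p = 0.171) did not pass, except when array 4 of the TGF-β-treated p38α∆ MSCs was left out (0.48, adjusted p = 0.0299).

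The pyruvate dehydrogenase kinases hold back the oxidation of pyruvate in mitochondria, and those that passed were lower with TGF-β. Pdk2 had 7.25, 7.20 and 7.33 in TGF-β-treated p38α∆ MSCs, against 8.57 and 8.18 in untreated p38α∆ MSCs. In WT MSCs it had 7.27, 6.99 and 7.11 with TGF-β, against 8.42, 7.93, 7.96 and 8.10 without. The 6 treated arrays all lay below the 6 untreated ones. Pdk2 fell 2.21-fold in p38α∆ MSCs (−1.15, SE 0.12, adjusted p = 1.57e-04 in limma) and 1.97-fold in WT MSCs (−0.98, SE 0.10, adjusted p = 5.53e-05), and between arrays of the same number it differed by −1.33 in p38α∆ MSCs (number 1) and by −1.15, −0.93 and −0.92 in WT MSCs (numbers 1, 3 and 4). In the p38α∆ arrays alone it was −1.11 (adjusted p = 0.0794).

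Pdk3 was lower by less. It had 7.63, 7.53 and 7.63 in TGF-β-treated p38α∆ MSCs, against 8.03 and 7.68 in untreated p38α∆ MSCs. The WT values were 7.70, 7.53 and 7.71 with TGF-β, against 8.03, 7.75, 7.91 and 7.98 without. The groups did not overlap, but the gap to the untreated arrays numbered 3 was small in both genotypes. Pdk3 fell 1.20-fold in WT MSCs (−0.26, SE 0.07, adjusted p = 0.0385), and its −0.31 in p38α∆ MSCs (SE 0.09, adjusted p = 0.0641) did not pass. The WT call was lost when any 1 of 8 arrays was left out, namely any of the 4 untreated WT arrays, any of the 3 TGF-β-treated WT arrays or the TGF-β-treated p38α∆ array 2 (−0.28 to −0.24, adjusted p from 0.0573 to 0.148). Pdk1, the kinase best known as a HIF target, changed by 0.23 in p38α∆ MSCs (SE 0.24) and 0.22 in WT MSCs (SE 0.18), and Pdk4 by −0.06 and 0.11, and neither passed.

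Lactate leaves cells through monocarboxylate carriers. Slc16a3 (MCT4), the lactate exporter of glycolytic cells, had 10.08, 9.75 and 9.84 in TGF-β-treated p38α∆ MSCs, against 9.66 and 8.39 in untreated p38α∆ MSCs. In WT MSCs it had 10.12, 9.59 and 10.03 with TGF-β, against 9.84, 9.47, 9.34 and 9.32 without. The untreated p38α∆ array 3 was the lowest of all 12 by a wide margin, and the WT groups overlapped. Slc16a3 rose 1.76-fold in p38α∆ MSCs (0.82, SE 0.23, adjusted p = 0.0457 in limma), and its 0.41 in WT MSCs (SE 0.17, adjusted p = 0.200) did not pass. Without the untreated p38α∆ array 3 the p38α∆ value was 0.38 (adjusted p = 0.341). The call was also lost without any 1 of the 3 TGF-β-treated p38α∆ arrays, the 4 untreated WT arrays or the TGF-β-treated WT arrays 1 and 3 (0.76 to 0.86, adjusted p from 0.0531 to 0.117). Slc16a1 (MCT1), which carries lactate and pyruvate in either direction, changed by 0.23 in p38α∆ MSCs and 0.20 in WT MSCs and did not pass.

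Of the genes of oxygen sensing, those that passed act on the removal of HIF. Vhl, which recognizes hydroxylated HIF for ubiquitination, had 8.28, 8.64 and 8.58 in TGF-β-treated p38α∆ MSCs, against 7.84 and 8.10 in untreated p38α∆ MSCs. In WT MSCs it had 8.25, 8.60 and 8.47 with TGF-β, against 8.00, 8.18, 8.10 and 7.96 without. No treated array was as low as an untreated array of its genotype. Vhl rose 1.45-fold in p38α∆ MSCs (0.54, SE 0.11, adjusted p = 0.00751 in limma) and 1.31-fold in WT MSCs (0.38, SE 0.08, adjusted p = 0.0101). The first call was lost without the untreated p38α∆ array 1 (0.51, adjusted p = 0.0950), and the second when array 3 of the TGF-β-treated WT MSCs (0.35, adjusted p = 0.0637) or their array 4 (0.37, adjusted p = 0.0558) was left out.

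Egln1 (PHD2), the main prolyl hydroxylase of HIF, had 10.12, 10.43 and 10.51 in TGF-β-treated p38α∆ MSCs, against 9.86 and 9.70 in untreated p38α∆ MSCs. The WT values were 10.26, 10.28 and 10.45 with TGF-β, against 9.93, 10.21, 10.15 and 10.18 without. The gap between treated and untreated arrays was clear in p38α∆ MSCs and narrow in WT MSCs. Egln1 rose 1.42-fold in p38α∆ MSCs (0.51, SE 0.11, adjusted p = 0.0156), and its 0.24 in WT MSCs (SE 0.09, adjusted p = 0.127) did not pass. The call was lost without the untreated p38α∆ array 3 (0.38, adjusted p = 0.143) and when array 4 of the TGF-β-treated p38α∆ MSCs was left out (0.43, adjusted p = 0.0567). Egln3 (PHD3), another prolyl hydroxylase, gave 0.32 in p38α∆ MSCs (SE 0.12, adjusted p = 0.139) and −0.02 in WT MSCs (SE 0.09). Hif1a, the HIF-1α subunit itself, gave 0.32 in p38α∆ MSCs (SE 0.24, adjusted p = 0.539) and 0.51 in WT MSCs (SE 0.19, adjusted p = 0.127), and Epas1 (HIF-2α) 0.04 and −0.03. None of these 3 passed. Epas1, at 4.28 to 4.54 over the 12 arrays, stayed below 5.11, the median over all genes of the mean value.

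Ak4, a mitochondrial adenylate kinase that HIF induces, had the highest log2 fold change of the list in p38α∆ MSCs. Its values were 9.03, 9.13 and 9.11 in TGF-β-treated p38α∆ MSCs, against 7.70 and 7.23 in untreated p38α∆ MSCs. In WT MSCs they were 8.73, 8.77 and 9.09 with TGF-β, against 7.80, 8.22, 7.92 and 7.87 without. All treated arrays were above all untreated ones, and the 3 treated p38α∆ arrays lay within a narrow band. Ak4 rose 3.00-fold in p38α∆ MSCs (1.59, SE 0.17, adjusted p = 1.42e-04 in limma) and 1.89-fold in WT MSCs (0.92, SE 0.13, adjusted p = 7.62e-04).

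Adm, the vasodilator peptide adrenomedullin, had 6.20, 5.78 and 5.79 in TGF-β-treated p38α∆ MSCs, against 5.48 and 5.10 in untreated p38α∆ MSCs. With TGF-β the WT arrays read 6.04, 5.49 and 5.64, against 5.47, 5.33, 5.30 and 5.36 without. The lowest treated WT array stood just above the highest untreated one, and array 1 was the highest of each group. Adm rose 1.57-fold in p38α∆ MSCs (0.65, SE 0.12, adjusted p = 0.00642) and 1.27-fold in WT MSCs (0.35, SE 0.10, adjusted p = 0.0409). The p38α∆ call was lost without the untreated p38α∆ array 3 (0.60, adjusted p = 0.0640). The WT call was lost when any 1 of 9 arrays was left out, namely any of the 4 untreated WT arrays, the TGF-β-treated WT arrays 1 and 4, either untreated p38α∆ array or the TGF-β-treated p38α∆ array 2 (0.26 to 0.38, adjusted p from 0.0539 to 0.214).

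Ero1a, an oxidase of protein folding in the endoplasmic reticulum, had 9.49, 9.79 and 9.79 in TGF-β-treated p38α∆ MSCs, against 8.87 and 9.71 in untreated p38α∆ MSCs. The WT values were 9.71, 10.13 and 9.87 with TGF-β, against 8.61, 9.55, 9.47 and 9.52 without. Array 1 was the lowest of each group, by a wide margin in the untreated groups, and the p38α∆ groups overlapped. Ero1a rose 1.56-fold in WT MSCs (0.64, SE 0.15, adjusted p = 0.0190), and its 0.42 in p38α∆ MSCs (SE 0.20, adjusted p = 0.262) did not pass. The WT call was lost when array 1 of the TGF-β-treated WT MSCs (0.57, adjusted p = 0.106) or their array 3 (0.63, adjusted p = 0.0787) was left out.

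The other 7 HIF targets measured did not pass in either genotype. Bnip3, a receptor for the removal of mitochondria, changed by 0.20 in p38α∆ MSCs and 0.11 in WT MSCs, Ddit4, an inhibitor of mTORC1, by 0.02 and 0.11, and Ndrg1 by 0.11 and −0.06. Ankrd37 had 0.45 and 0.27, and Higd1a, a mitochondrial protein, 0.06 and 0.09 at its brightest probeset. Car9 and Car12, carbonic anhydrases of the cell surface, lay at 3.83 to 4.19 and 3.93 to 4.33 over the 12 arrays, below 5.11 like Epas1, and changed by no more than 0.16. Across the 23 genes of the list that passed in no comparison, the log2 fold change with TGF-β ran from −0.41 (Aldoc) to 0.45 (Ankrd37) in p38α∆ MSCs and from −0.29 (Aldoc) to 0.51 (Hif1a) in WT MSCs.

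**Figure D2:**
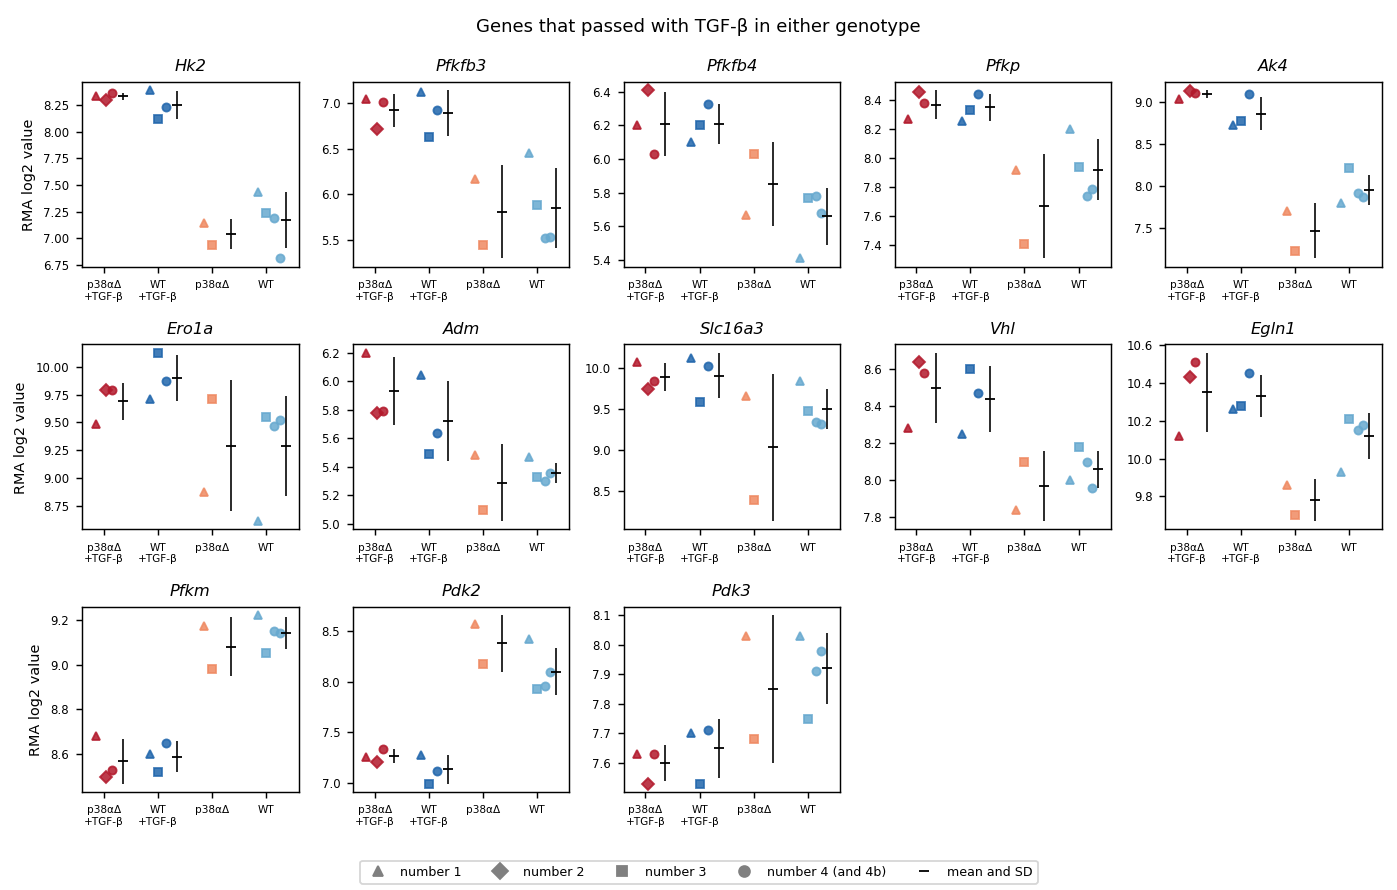
RMA log2 values (vertical axes, 1 scale per gene, not starting at 0) of the 13 genes that passed with TGF-β in either genotype, 1 point per array in the groups TGF-β-treated p38α∆, TGF-β-treated WT, untreated p38α∆ and untreated WT, with the point's shape for the array number and the group's mean and SD beside the points. For Hk2, Pfkm, Pdk2 and Ak4 the 6 treated arrays stand clear of the 6 untreated ones, while Slc16a3 in untreated p38α∆ MSCs shows 1 low array, 3, at 8.39.

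Groups that did not overlap were counted as well, since this needs no model. With TGF-β in p38α∆ MSCs, 12 of 36 genes had all treated arrays above all untreated ones, which 9.67% of all genes did, and 4 had all below, which 12.2% of all genes did. In WT MSCs the counts were 9 above, against 5.37% of all genes, and 3 below, against 7.99%. For the list that is 33.3% above and 11.1% below in p38α∆ MSCs and 25.0% above and 8.33% below in WT MSCs. The genes with all treated arrays below were thus about as frequent in the list as among all genes.

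Loss of p38α did not change any gene of the list past the threshold. With TGF-β, none of the 36 passed between p38α∆ and WT MSCs in limma, where 0.450% of all genes did (0.368% higher and 0.0819% lower). There 4 genes of the list had an unadjusted p under 0.05, as did 1471 of all 17097. All 3 p38α∆ arrays lay above all 3 WT arrays for 2 genes of the list (Ndrg1 and Egln3), where 5.26% of all genes did, and below them for 1 (Aldoc), where 3.45% did. The log2 fold changes ran from −0.30 to 0.30 with a median of −0.06. Ndrg1, a stress-induced gene that HIF turns on, had 9.39, 9.35 and 9.19 in TGF-β-treated p38α∆ MSCs, against 9.07, 8.63 and 9.13 in TGF-β-treated WT MSCs. Aldoc had 7.51, 7.36 and 7.35 in TGF-β-treated p38α∆ MSCs, against 7.87, 7.51 and 7.66 in TGF-β-treated WT MSCs. Ndrg1 was the higher in every p38α∆ array, and for Aldoc the highest p38α∆ array lay just below the lowest WT array, both at 7.51 after rounding. The fits gave 0.30 for Ndrg1 (SE 0.11, 95% interval 0.07 to 0.54, adjusted p = 0.364 in limma) and −0.30 for Aldoc (SE 0.12, interval −0.58 to −0.03, adjusted p = 0.502), and the differences were 0.32 and −0.36 within number 1 and 0.06 and −0.32 within number 4. The genes with the largest TGF-β responses had intervals of −0.19 to 0.35 (Hk2), −0.40 to 0.44 (Pfkfb3), −0.14 to 0.33 (Pdk2) and −0.11 to 0.53 (Ak4), and a difference between the genotypes within these intervals cannot be told from none here.

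Without TGF-β, no gene of the list passed between p38α∆ (n = 2) and WT (n = 4) MSCs, and of all genes 0% did. An unadjusted p under 0.05 was reached by 6 genes of the list and by 841 of all 17097. The log2 fold change was below 0 for 31 of the 36 genes, among them all 13 glycolytic enzymes (−0.30 to −0.05), with a median of −0.11 for the list, against 8708 of 17097 and −0.00 for all genes. Both p38α∆ arrays lay above the 4 WT arrays for none of the list, where 3.52% of all genes did, and below them for 3 of the list (Egln1, Higd1a and Ak4), where 3.00% did. All values of this comparison share the same 2 p38α∆ arrays, and several rest on array 3. Averaged over the 13 enzymes, the deviation from each gene's mean was −0.02 in the untreated p38α∆ array 1 and −0.27 in array 3. In the untreated WT arrays it was −0.03 to 0.05. Ak4 had 7.70 and 7.23 in untreated p38α∆ MSCs, against 7.80, 8.22, 7.92 and 7.87 in untreated WT MSCs, a difference of −0.46 (SE 0.15, adjusted p = 0.982 in limma) that was −0.10 within number 1 and −0.98 within number 3. Slc16a3 was lower by −0.18 within number 1 and −1.08 within number 3, and Egln1 by −0.08 and −0.51. Pdk2 was among the few genes with a positive value, 0.27 (SE 0.11, interval 0.02 to 0.51), with 0.15 within number 1 and 0.25 within number 3.

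**Figure D3:**
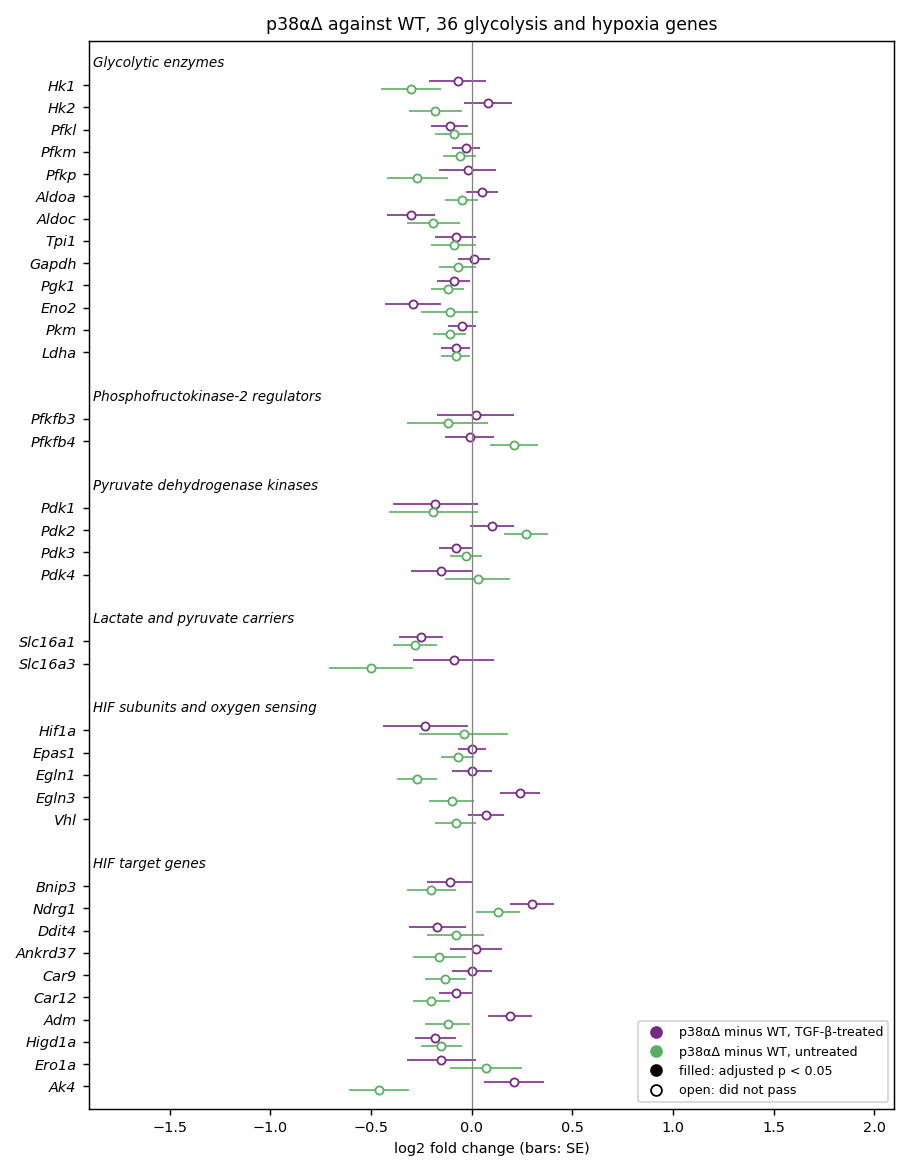
Log2 fold change of p38α∆ against WT MSCs (horizontal axis, bars 1 SE) of the 36 measured genes, with TGF-β (purple, above) and without (green, below), on the same scale as the plot of TGF-β responses. All points are open, since no gene passed, and 31 of the 36 green points lie below 0.

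Whether TGF-β acted differently in the 2 genotypes was tested as the response in p38α∆ MSCs minus that in WT MSCs. No gene of the list passed and 0% of all genes did, with an unadjusted p under 0.05 for 2 genes of the list and 920 of all genes in limma. The 2 genes of the list were Ak4 (0.67, SE 0.22, 95% interval 0.19 to 1.14, unadjusted p = 0.0100, adjusted p = 0.848) and Egln3 (0.34, SE 0.15, interval 0.01 to 0.68, adjusted p = 0.908). For Hk2 the difference was 0.26 with an interval of −0.14 to 0.65, for Pdk2 −0.17 with −0.52 to 0.18, for Pfkfb3 0.14 with −0.47 to 0.75 and for Slc16a3 0.41 with −0.23 to 1.05. With 2 untreated p38α∆ arrays these intervals are wide. Within number 1, the only number with all 4 groups, Ak4 rose by 1.32 in p38α∆ MSCs and by 0.92 in WT MSCs.

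The array number also went with the level of part of the list, about as often as over all genes. The array numbered 1 was the lowest of its group in all 4 groups for 7 of the 36 genes (19.4%, against 17.8% of all genes) and the highest in all 4 for 7 others (19.4%, against 24.1% of all genes), shares near those of all genes. The low ones were Pgk1, Eno2, Pdk1, Pdk4, Hif1a, Bnip3 and Ero1a, and the high ones Hk1, Aldoc, Gapdh, Pfkfb3, Slc16a3, Epas1 and Adm. Pdk1 had 8.13 in array 1 of TGF-β-treated p38α∆ MSCs, against 9.19 and 8.82 in arrays 2 and 4, and 7.89 in array 1 of untreated p38α∆ MSCs, against 8.89 in array 3. In WT MSCs it had 8.45 in array 1, against 9.16 and 9.09, with TGF-β, and 7.93, against 9.04, 9.07 and 8.88, without. All 4 arrays numbered 1 (7.89 to 8.45) thus lay below all 8 others (8.82 to 9.19), whatever their group. Averaged over the groups, array 1 differed from the others by −0.90 for Pdk1, −0.72 for Hif1a, −0.58 for Ero1a and −0.58 for Pdk4, and by 0.58 for Slc16a3, 0.51 for Pfkfb3 and 0.46 for Hk1. For Hif1a the difference between TGF-β-treated and untreated WT MSCs was 1.07 within number 1, 0.56 within number 3 and 0.08 within number 4. The sources used here do not give a scan or culture batch for the arrays, and the part of either in these values was not tested. Without the 4 arrays numbered 1, 9 genes of the list passed with TGF-β in WT MSCs. Of the untreated p38α∆ MSCs only array 3 then remained, so no count is given for p38α∆ MSCs.

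**Figure D4:**
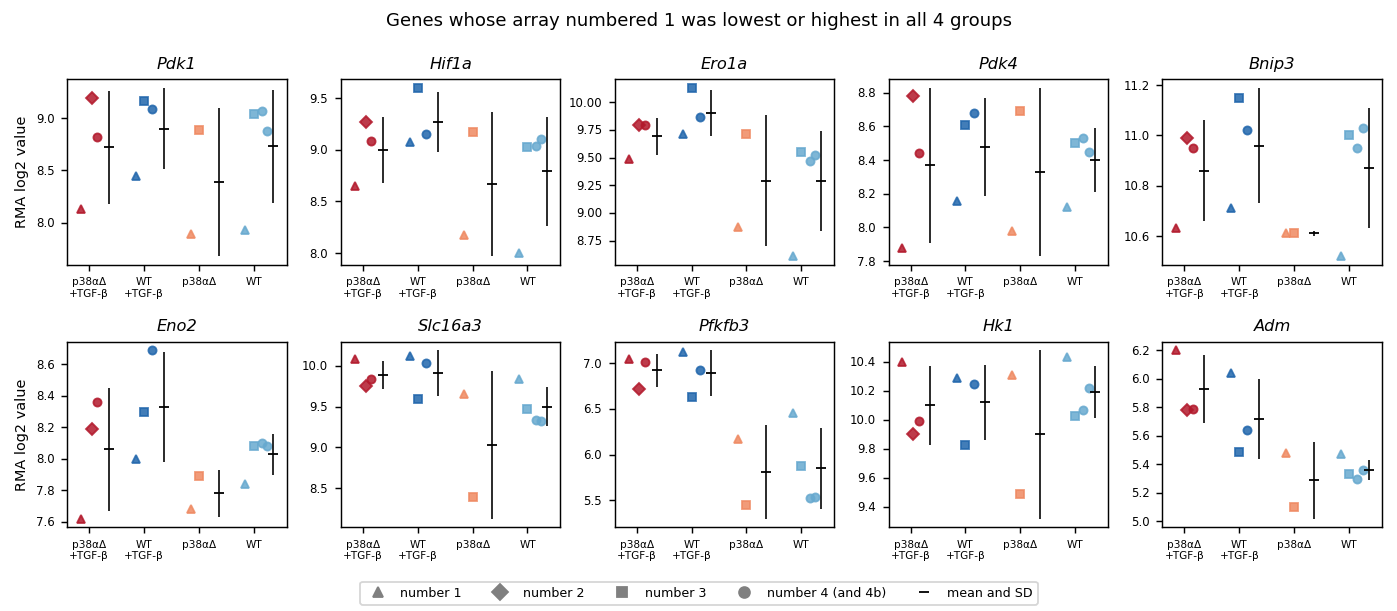
RMA log2 values (vertical axes, 1 scale per gene, not starting at 0) of 10 of the 14 genes whose array numbered 1 (triangles) was at one end of all 4 groups, with the groups and symbols as in the plot of values by array. Triangles lie lowest for Pdk1, Hif1a, Ero1a, Pdk4, Bnip3 and Eno2 and highest for Slc16a3, Pfkfb3, Hk1 and Adm.

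The 36 genes had 64 probesets between them, 1 for 17 genes and 2 or more for 19. Hk2 and Pdk2 had 1 each, so their responses rest on a single probeset. The other Pfkfb3 probeset rose by 1.83 in p38α∆ MSCs and 1.52 in WT MSCs, and 2 further Ak4 probesets by 1.17 and 1.90 in p38α∆ MSCs and by 0.71 and 1.22 in WT MSCs, while its 2 dimmest probesets (means 3.78 and 2.98) gave −0.04 and 0.40 in p38α∆ MSCs and 0.16 and 0.13 in WT MSCs. The other Vhl probeset gave 0.64 and 0.33, and the dim other Pfkp probeset (mean 4.06) 0.59 and 0.31. Some genes depended on the probeset. Of Ero1a's 2 other probesets, 1 gave −0.02 in p38α∆ MSCs and −0.01 in WT MSCs and the other 0.40 and 0.51. A dim Pfkl probeset (mean 5.05) gave 0.60 in p38α∆ MSCs and 0.67 in WT MSCs where the 2 bright ones stayed between −0.08 and 0.07, and 2 dimmer Higd1a probesets gave 0.74 and 0.65 in p38α∆ MSCs and 0.40 and 0.22 in WT MSCs where the brightest gave 0.06 and 0.09. Read from the probeset with the highest median absolute deviation, Pfkl passed in p38α∆ MSCs (adjusted p = 0.0342) and WT MSCs (adjusted p = 0.00351), and so did Higd1a (adjusted p = 0.00717 and 0.0393), while Egln1 did not pass in p38α∆ MSCs (0.60, adjusted p = 0.0535).

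**Figure D5:**
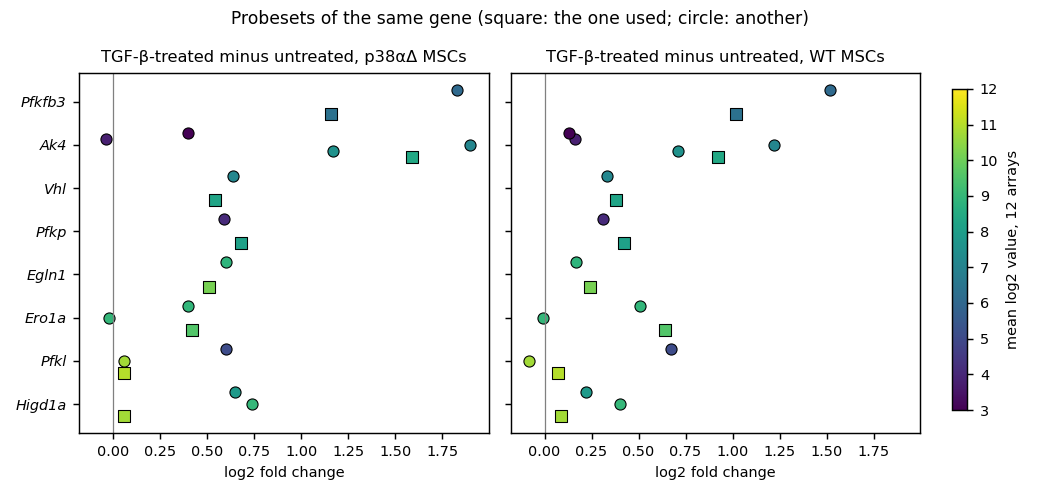
Log2 fold change with TGF-β (horizontal axes) of each probeset of 8 genes, in p38α∆ MSCs (left) and WT MSCs (right), with squares for the probeset used, circles for the others and colour for its mean log2 value. The circles of Pfkfb3 and Vhl lie on the same side as their squares, while those of Pfkl, Higd1a, Ero1a and Ak4 are spread.

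The neighbours of the list in both pathways were counted in the same fit. Of 41 measured further genes of glucose and pyruvate metabolism, 2 were higher and 2 lower with TGF-β in p38α∆ MSCs (9.76%, close to the 8.40% of all genes) and 2 higher and 4 lower in WT MSCs (14.6%, against 9.38%). Slc2a1 (GLUT1), the main glucose carrier of proliferating cells, rose in limma by 1.03 with an SE of 0.14 in p38α∆ MSCs (adjusted p = 6.01e-04) and by 0.67 with an SE of 0.10 in WT MSCs (adjusted p = 0.00138), and Bpgm by 0.50 and 0.38. Pdp1, the phosphatase that undoes the work of the pyruvate dehydrogenase kinases, fell by 1.46 in p38α∆ MSCs (SE 0.21, adjusted p = 0.00104) and by 1.27 in WT MSCs (SE 0.16, adjusted p = 3.10e-04). Pdk2 and Pdp1, which act on the same enzyme in opposite directions, were thus both lower with TGF-β. Gpd1l fell by 0.61 in p38α∆ MSCs and by 0.48 in WT MSCs. Galm and Eno3 fell by 0.64 and 0.63 in WT MSCs, and their −0.06 and −0.32 in p38α∆ MSCs did not pass.

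Of 45 measured further genes of hypoxia and HIF, 5 were higher and 2 lower in p38α∆ MSCs with TGF-β (15.6%, against 8.40% of all genes), and 5 higher and 4 lower in WT MSCs (20.0%, against 9.38%). Bhlhe40, a transcriptional repressor, rose in limma by 1.97 with an SE of 0.10 in p38α∆ MSCs (adjusted p = 8.83e-07) and by 1.74 with an SE of 0.08 in WT MSCs (adjusted p = 1.69e-07). Plod2, a collagen lysyl hydroxylase, rose by 1.38 in p38α∆ MSCs and 1.09 in WT MSCs, Vegfa, the vascular growth factor, by 1.14 and 0.72, and Loxl2, a crosslinker of matrix, by 0.79 and 0.85. Cited2, which competes with HIF for its coactivators, fell by 1.03 in p38α∆ MSCs and by 1.11 in WT MSCs, and Ppp1r3c, a glycogen-targeting subunit, fell by 0.99 in p38α∆ MSCs and by 0.39 in WT MSCs. Stc2 and Arnt, the partner subunit of HIF, fell by 0.70 and 0.40 in WT MSCs, and their −0.31 each in p38α∆ MSCs did not pass. Between p38α∆ and WT MSCs with TGF-β, where none of the list itself passed, Galm (0.88, adjusted p = 0.0129), Stc2 (0.73, adjusted p = 0.0408) and Angptl4 (0.56, adjusted p = 0.0383) of these neighbours were higher, and none was lower. Without TGF-β none of them passed.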

How the data were processed

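RNA of mouse MSCs was amplified from 25 ng and hybridized to 12 Affymetrix MG-430 PM arrays in 4 groups. RMA was applied by the authors before deposit, and their log2 values of 45101 probesets were taken as they stand. Probesets were named from the platform annotation, in which 28898 had 1 gene symbol, 551 several and 15652 none listed, and only the first were used, 1 per gene by the highest mean, which left 17097 genes. Groups were compared with limma 3.58.1 in R 4.3.3 (lmFit and eBayes, tested on simulated data) in 1 fit of all arrays with 4 group means. The scanning batch that the methods adjust for is not given in the sources used here, so the array number entered as a random block (estimated correlation 0.49, or 0.11 without the arrays numbered 1), with 4b counted as number 4. Two-sided p-values were adjusted by Benjamini-Hochberg over the 17097 genes, with a threshold of 0.05. The number of arrays limits the precision.

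The genes of the list, the lists of further pathway genes and the cell type markers were chosen with earlier results of these data known. Values in every array were printed for each gene of the list that passed in any pairwise comparison. Of the further pathway genes, up to 3 in each direction with the largest change among those that passed were named per list and comparison. A gene's other probesets were read from a fit of all probesets. Alternatives were all probesets without choosing 1 per gene, the probeset with the highest median absolute deviation, no array number, the number as a fixed term, 4b as its own number, a filter on dim genes, median centring, a second quantile normalization, only the groups compared (for TGF-β in p38α∆ MSCs without the number, added after the data were seen), the arrays numbered 1 left out, and each array left out in turn. Promoter windows came from RefSeq (GRCm38.p6).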

Additional observations from a re-analysis of the deposited data

Results flagged for a closer look

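In untreated WT MSCs, the only group with 4 arrays, 1 array lay far from the other 3 for 5 of the 36 genes (13.9%), close to the 11.5% of all 17097 genes, where chance alone puts about 1 in 20 groups past the limit used (Dixon's 95% critical value for the gap over the group's range). In the list it was array 1 each time, and low each time, and over all genes array 1 was the stray one for 9.79%, and low for 4.63%. Hif1a had 8.00 in that array, against 9.03, 9.04 and 9.10 in the others, and Pdk1 had 7.93, against 8.88, 9.04 and 9.07. For Ero1a the value was 8.61, against 9.47, 9.52 and 9.55. Bnip3 had 10.52, against 10.95, 11.00 and 11.03, and Eno2 had 7.84, against 8.08, 8.08 and 8.10. For all 5 genes array 1 was also the lowest of the other 3 groups. Without that array, Ero1a still passed with TGF-β in WT MSCs, and the other 4 genes did not pass.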

How the results depend on the processing

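Of the 20 calls of the list with TGF-β (10 in each genotype), 8 held under every alternative run and 12 were lost under at least 1, and none changed direction. Those that held were Hk2 and Ak4 in both genotypes and Pfkm, Pfkfb3, Pfkfb4 and Pdk2 in WT MSCs. In p38α∆ MSCs, Pfkm and Pdk2 were lost only in the added fit of the p38α∆ arrays alone without the number. No such fit was run for WT MSCs, so the genotypes did not face the same alternatives. No gene of the list passed between p38α∆ and WT MSCs, or in the difference of responses, under any alternative. Of 3909 values of the list under alternatives, 69 lost a call and 16 gained one. The array numbers may not pair the samples: of 14 same-numbered pairs across groups, 12 had deviations correlated above 0.1 (range 0.02 to 0.85), and 8 of 12 arrays correlated best with their own number.

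Without the replicate block, 6 genes of the list passed in p38α∆ MSCs and 6 in WT MSCs, losing Pfkfb3, Slc16a3, Vhl and Adm in p38α∆ MSCs and Pdk3, Vhl, Adm and Ero1a in WT MSCs, and over all genes 624, 602 and 14 passed with TGF-β in p38α∆ MSCs, with TGF-β in WT MSCs and between the genotypes under TGF-β, where 1436, 1604 and 77 passed with the block. For the last comparison, the number as a fixed block gave 14 genes, leaving out the arrays numbered 1 gave 29, and the 6 treated arrays alone gave 147. Over all probesets, 2348 passed with TGF-β in p38α∆ MSCs, 2703 in WT MSCs and 3 in the difference of responses. The counts over all probesets are of probesets and not of genes, so they cannot be set directly against the gene counts. The causes of the differing counts were not tested.

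Leaving out 1 array at a time, from 5 (without the untreated p38α∆ array 3) to 10 genes of the list passed in p38α∆ MSCs and from 7 to 11 in WT MSCs. Over all genes, 698 to 1644 passed in p38α∆ MSCs, 975 to 1840 in WT MSCs, 7 (without the TGF-β-treated p38α∆ array 4) to 113 (without the untreated WT array 4b) between the TGF-β-treated genotypes, 0 to 2 (without the untreated WT array 4b) between the untreated ones and 0 to 1 (without the TGF-β-treated p38α∆ array 1) in the difference of responses. Where 1 untreated p38α∆ array remained, it was assumed to vary like the other groups. A second quantile normalization moved Eno2 in WT MSCs past the threshold (adjusted p = 0.0459), and the filter on dim genes Pdk3 in p38α∆ MSCs (adjusted p = 0.0472). Both rescalings shifted the median of all genes by at most 0.02. For TGF-β in the p38α∆ groups alone, the correlation of the block could not be estimated, since they share 1 number. A fit of those 5 arrays without the replicate block, chosen after seeing the data, called 2 genes of the list (Hk2 and Ak4) and 75 of all genes.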
